A study of Mus musculus with 6 samples.

Results

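Autophagy is the route by which a cell encloses its own cytoplasm, damaged organelles or aggregates in a double membrane and delivers them to the lysosome. The genes described here are 34 genes of the autophagy machinery and of the TFEB transcription factor family, taken by gene name from a table of 53774 named lines, and every member was found. The table holds RNA levels of macrophages sorted as CD45-positive, F4/80-positive cells at day 3 after mouse muscle was injured with barium chloride, a salt that kills myofibres. The tested mice, of genotype Cx3cr1-CreER, Manffl/fl, were given tamoxifen to delete Manf, and mice of the same genotype given oil were the controls, with 3 libraries in each group. Both groups thus carried the Cx3cr1-driven, tamoxifen-dependent recombinase and the floxed Manf alleles. Of the items stated, only the agent given differed. No library here came from mice given tamoxifen without the recombinase or the floxed alleles. An effect of tamoxifen itself and an effect of the deletion therefore cannot be told apart. The recombinase acts in cells that express Cx3cr1 while tamoxifen is present. Sorted cells would keep Manf where neither they nor the cells they came from did so. Age, sex, tamoxifen dose and the number of mice behind a library are not part of the labels. P-values therefore measure the spread between these libraries, which may be technical.

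Formation of the autophagosome starts with the ULK kinase complex, which activates a class III PI3-kinase complex that marks the site with a phosphoinositide. WIPI proteins read that mark, and a pair of ubiquitin-like conjugation reactions then attaches proteins of the ATG8 family (LC3 and GABARAP proteins) to the growing membrane. Cargo receptors such as p62 (Sqstm1) bind ubiquitinated cargo and ATG8 proteins at the same time, and tethers bring the closed vesicle to the lysosome. TFEB, TFE3, MITF and TFEC are related transcription factors that bind E-box sequences near genes of lysosomes and autophagy. Their activity is set largely by phosphorylation through mTORC1 and by their place in the cell, which RNA levels do not measure. Macrophages rely on lysosomes and autophagy to break down engulfed material, including muscle debris after injury.

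The E-box CACGTG, a palindrome and so the same on both strands, was looked for in RefSeq promoter windows (GRCm38.p6) from 250 bases before to 50 after each start. Of the 34 members 27 had a window, and these had 34 windows in all, since some genes have several starts. The genes without one were Rb1cc1, Becn1, Pik3c3, Atg12, Atg16l1, Map1lc3a and Epg5. The letters CACGTG stood in 4 of the 34 member windows, those of Atg3, Atg5, Atg7 and Atg14, against 2349 of all 32851 windows (7.15%). The longer CLEAR element GTCACGTGAC, which contains that E-box, was in 107 of all windows (0.326%) and in 0 of the members' windows. The 4 windows with an E-box are shown because they hold letters that TFEB family proteins can bind. The Atg7 window belongs to an internal start, far inside the annotated gene (chromosome 6, 114643097 to 114860614, plus strand). The Atg14 window also lies inside its gene (chromosome 14, 47540893 to 47570649, minus strand), nearer to the first annotated base. Capitals mark CACGTG, which begins 94 and 71 bases before the start in Atg3, 14 in Atg5, 132 in Atg7 and 1 in Atg14.
Atg3 (chr16:45158579-45158878, plus strand): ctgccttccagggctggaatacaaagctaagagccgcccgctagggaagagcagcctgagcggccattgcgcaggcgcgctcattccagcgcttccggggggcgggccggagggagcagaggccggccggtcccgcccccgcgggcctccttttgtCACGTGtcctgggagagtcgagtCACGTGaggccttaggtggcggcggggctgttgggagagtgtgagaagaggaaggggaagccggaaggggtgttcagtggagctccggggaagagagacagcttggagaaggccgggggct
Atg5 (chr10:44268089-44268388, plus strand): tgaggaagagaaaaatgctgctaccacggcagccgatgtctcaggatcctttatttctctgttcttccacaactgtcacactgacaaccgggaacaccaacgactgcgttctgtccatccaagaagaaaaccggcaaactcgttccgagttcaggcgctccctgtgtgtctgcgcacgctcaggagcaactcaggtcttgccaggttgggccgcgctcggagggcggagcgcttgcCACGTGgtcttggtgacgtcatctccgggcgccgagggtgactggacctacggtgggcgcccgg
Atg7 (chr6:114670846-114671145, plus strand): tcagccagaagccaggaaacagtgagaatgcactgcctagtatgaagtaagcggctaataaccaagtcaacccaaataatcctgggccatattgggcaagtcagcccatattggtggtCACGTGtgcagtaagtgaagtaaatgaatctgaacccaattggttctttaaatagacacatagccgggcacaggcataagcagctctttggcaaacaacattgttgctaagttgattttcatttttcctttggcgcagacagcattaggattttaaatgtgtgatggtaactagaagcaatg
Atg14 (chr14:47568385-47568684, minus strand): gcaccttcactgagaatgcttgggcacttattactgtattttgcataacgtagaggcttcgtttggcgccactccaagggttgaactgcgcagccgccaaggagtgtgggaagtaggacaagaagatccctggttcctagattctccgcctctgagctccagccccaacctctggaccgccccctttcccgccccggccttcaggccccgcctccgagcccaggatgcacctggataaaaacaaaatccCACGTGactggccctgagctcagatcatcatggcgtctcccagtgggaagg
A match of letters is a description and not evidence of binding. The RNA levels of the 4 genes did not run in 1 direction. Atg3 was higher in the tamoxifen-labelled libraries than in oil, Atg5 and Atg14 were lower, and Atg7 was nearly level, with the values given below.

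Levels are FPKM, the authors' unit of fragments or reads scaled to exon length and to library size. Depth, recovered from the low values, lay between 18120333 and 25544666 reads per library. Manf did not separate the groups, with 18.1, 42.5 and 38.0 FPKM in the tamoxifen-labelled libraries 1, 2 and 3, against 29.5, 33.05 and 31.4 FPKM in oil 1, 2 and 3. Its log2 fold change was -0.02 (SE 0.29, limma-trend adjusted p = 0.976, and exact two-sided permutation p = 1, where the smallest possible is 0.1). Without tamoxifen-labelled library 1 Manf rose by 0.35, past the threshold of 0.05 (limma-trend adjusted p = 0.0214, with 0.0214 to 0.987 over all alternatives), so the gene targeted for deletion was called higher in tamoxifen-labelled libraries 2 and 3 than in oil. Without oil 2 its log2 fold change was 0.02. The gene-level value includes any exon left after deletion, so it does not show whether the protein was lost, and every direction given here follows the labels of the libraries. Tamoxifen-labelled library 1 lay nearer to oil than to the other libraries of its group. Set against the oil libraries, its recovered reads gave a chi-square per degree of freedom of 14.2 to 24.6, and of 80.2 and 59.4 against the tamoxifen-labelled libraries 2 and 3.

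The sorted cells carried the RNA of the sort markers. Adgre1 (F4/80) was at 329 ± 35.1 FPKM in the tamoxifen-labelled libraries and 353 ± 27.8 FPKM in oil. Ptprc (CD45) was at 39.0 ± 6.88 FPKM in the tamoxifen-labelled libraries and 50.7 ± 3.60 FPKM in oil (SD, n = 3 each). Cx3cr1 was at 31.3, 9.82 and 24.6 FPKM in the tamoxifen-labelled libraries, against 51.7, 42.7 and 51.0 FPKM in oil. Summed marker levels of several cell types moved with the groups, and their part in the results below was not tested. The 8 macrophage and sort markers summed to between 8512 and 9620 FPKM in the tamoxifen-labelled libraries and between 10717 and 12404 FPKM in oil. Lyz2 was most of that sum in every library. Lyz2, Csf1r, Ptprc and Cx3cr1 were below oil in every library labelled tamoxifen. Fcgr1 went the other way, at 164, 158 and 150 FPKM in the tamoxifen-labelled libraries, against 117, 133 and 139 FPKM in oil. Adgre1 and Cd68 overlapped between the groups, and Itgam was at 0.207 FPKM or less. The 10 neutrophil markers summed to 56.2, 369 and 113 FPKM in the tamoxifen-labelled libraries 1, 2 and 3, and to between 51.3 and 54.8 FPKM in oil. Most of the rise was S100a8, S100a9 and Lcn2, at 154, 120 and 33.6 FPKM in tamoxifen-labelled library 2, and Mmp8 was also higher. Csf3r was lower in tamoxifen-labelled libraries 2 and 3, at 15.2 and 14.6 FPKM, against 27.3, 28.7 and 28.2 FPKM in oil. Mmp9, Retnlg, Mpo and Cxcr2 overlapped between the groups, and Ly6g was at 0.176 FPKM or less. The 7 dendritic cell markers summed to between 31.4 and 56.4 FPKM in the tamoxifen-labelled libraries and between 55.6 and 70.6 FPKM in oil, with overlap through tamoxifen 1. Irf8 and Itgax were most of that sum in every library, and Cd209a was lower in every library labelled tamoxifen. Flt3, Zbtb46, Xcr1 and Clec9a were at 0.742 FPKM or less, and of these Zbtb46 and Xcr1 overlapped between the groups. The 6 B cell markers summed to between 9.24 and 24.0 FPKM in the tamoxifen-labelled libraries and between 29.6 and 36.0 FPKM in oil. Ighm was the largest part of that sum in every library, and Cd79a went the other way. The 8 T and NK cell markers, among which Ncr1 was at 0 in every library, summed to between 0.529 and 2.28 FPKM in the tamoxifen-labelled libraries and between 3.86 and 5.71 FPKM in oil. Most of that sum was Cd4, at 1.63, 0.315 and 0.359 FPKM in the tamoxifen-labelled libraries, against 5.36, 3.71 and 3.60 FPKM in oil. Cd3e, Cd3d, Cd3g, Cd8a and Nkg7 were at 0.0857 FPKM or less in every library, and Klrb1c overlapped between the groups. For muscle (8 markers) the sums ran from 2.32 to 3.38 FPKM in the tamoxifen-labelled libraries and from 4.08 to 7.54 FPKM in oil. The fibroblast, endothelial and erythroid lists overlapped between the groups. Their sums ran from 15.01 to 36.1 FPKM in the tamoxifen-labelled libraries and from 22.1 to 24.4 FPKM in oil for 6 fibroblast markers. For 6 endothelial markers they ran from 6.69 to 8.01 FPKM in the tamoxifen-labelled libraries and from 6.45 to 7.82 FPKM in oil. For 5 erythroid markers they ran from 1.98 to 4.25 FPKM in the tamoxifen-labelled libraries and from 1.003 to 3.09 FPKM in oil. In bulk RNA, fewer cells of a type and less RNA per cell cannot be told apart.

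More autophagy genes were at lower than at higher levels in the tamoxifen-labelled libraries, but no member passed the test over all genes. Of the 34 members 33 reached the mean of 1 FPKM needed to enter the test, and Epg5 is listed at 0 in all 6 libraries. The fold changes of 22 members were below 0 and those of 11 above 0, with a median of -0.08. Of all 10920 genes tested 5054 were below 0 and 5866 above 0, with a median of 0.02. Limma-trend with Benjamini-Hochberg adjustment called 0 members, and 0 of all genes (0%). At an unadjusted p under 0.05 there were 11 members (33.3%), against 24.9% of all genes tested. Of these 2 were higher and 9 lower, where 13.2% of all genes were higher and 11.7% lower. Limma-voom on the recovered reads, with 32 members measured, also called 0 members and 0 of all genes after adjustment and counted 2 higher and 9 lower before it, where 13.2% of all genes were higher and 12.6% lower. All 3 libraries labelled tamoxifen lay outside the range of the oil libraries for 13 members (39.4%), against 29.9% of all genes. These were 4 members above oil, where 16.2% of all genes were, and 9 below it, where 13.8% were. When libraries were set to equal sums of FPKM the split was 2 above and 11 below, where 13.3% of all genes were above and 15.6% below. The count of 11 members at an unadjusted p under 0.05 changed with single libraries, and so did the share of all genes. It was 5 members (15.2%) without tamoxifen-labelled library 3, against 13.9% of all genes. It was 3 members (9.09%) without oil 1, below the 11.4% of all genes. Without oil 2 and without oil 3 it was 7 members (21.2%) each, against 16.5% of all genes without oil 2 and 17.4% without oil 3. Without tamoxifen-labelled library 1 it was 15 members (45.5%), against 44.8% of all genes, and without tamoxifen-labelled library 2 it was 8 members (24.2%), against 13.1%. The count of 13 members without overlap became 25 (75.8%) without tamoxifen-labelled library 1, where 61% of all genes had none. Of these 6 lay above oil, where 33.7% of all genes did, and 19 below, where 27.3% did.

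**Figure D1:**
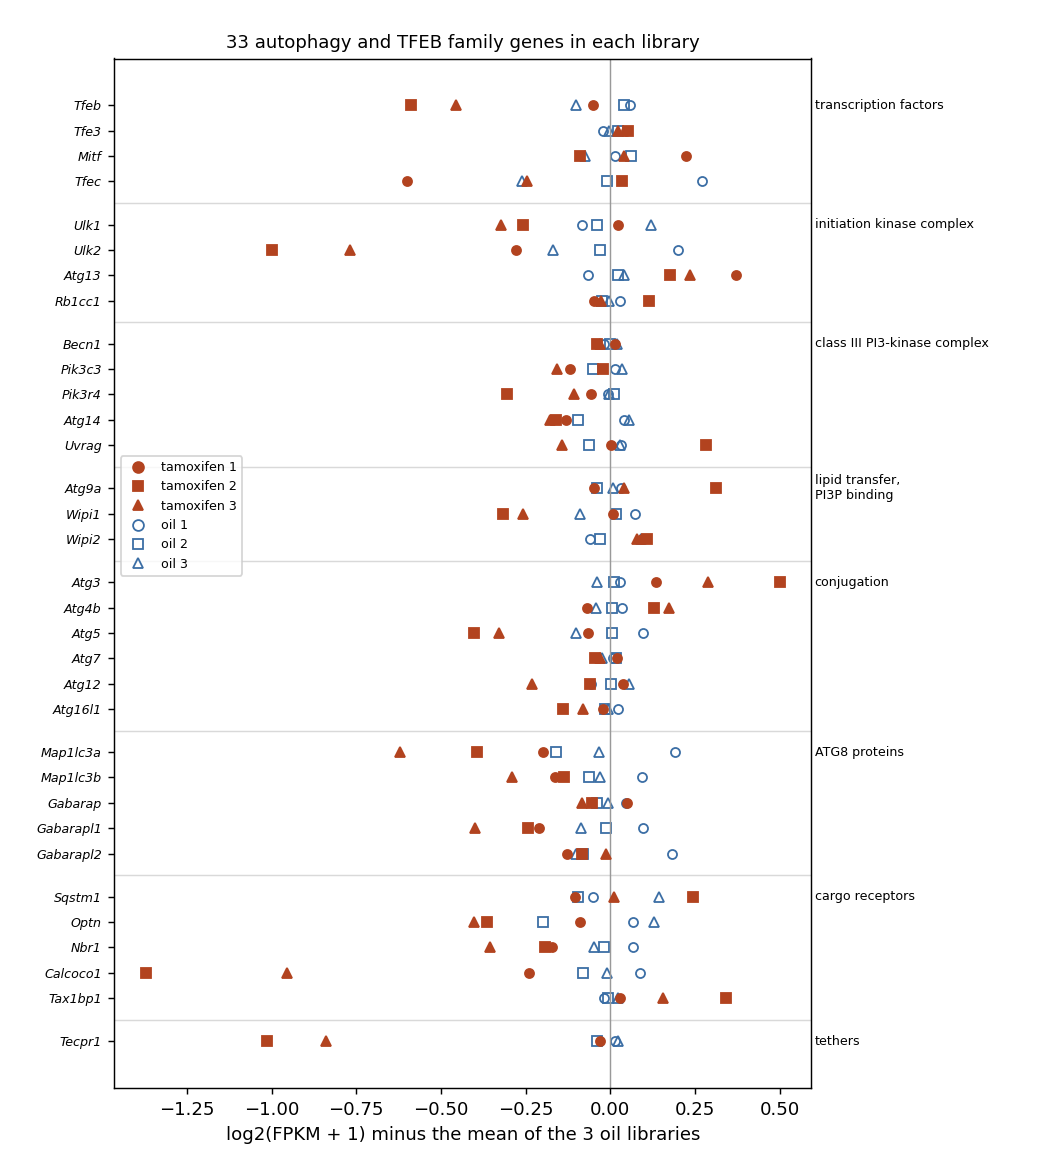
Each row is a member, grouped by role, and the horizontal axis is log2(FPKM + 1) minus the mean of the 3 oil libraries, with filled red symbols for the tamoxifen-labelled libraries and open blue symbols for oil. Calcoco1, Ulk2 and Tecpr1 have the points farthest to the left, from the tamoxifen-labelled libraries 2 and 3, and Atg3 in tamoxifen-labelled library 2 lies farthest to the right.

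Without tamoxifen-labelled library 1, limma-trend called 12 members (36.4%), against 31.9% of all genes. Among them Atg3 and Tax1bp1 rose, where 17.4% of all genes rose. Tfeb, Ulk1, Ulk2, Wipi1, Atg5, Map1lc3a, Gabarapl1, Nbr1, Calcoco1 and Tecpr1 fell, which is 10 members (30.3%), where 14.5% of all genes fell. Leaving out any other single library gave 0 called members. For 22 of the 33 tested members (66.7%) tamoxifen-labelled library 1 was nearer to the oil mean than both other libraries of its group, and the same held for 62.8% of all genes. The spread within groups followed the same split. The median coefficient of variation of the members was 11.5% in the tamoxifen-labelled libraries and 4.36% in oil. Over all genes tested it was 12.3% in the tamoxifen-labelled libraries and 7.20% in oil.

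**Figure D2:**
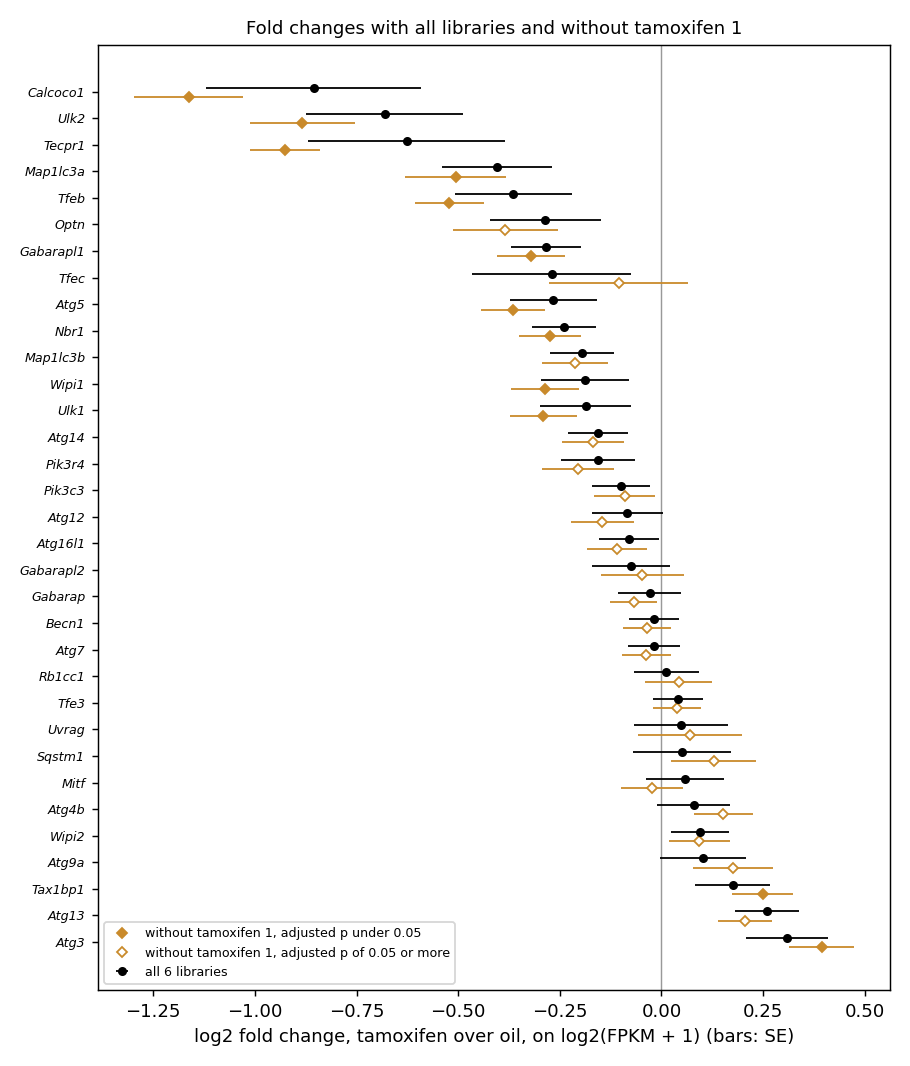
Points give the log2 fold change of tamoxifen over oil on log2(FPKM + 1) for the 33 tested members, with bars for the SE, black for all 6 libraries and orange for the fit without tamoxifen-labelled library 1. Filled orange diamonds mark the 12 members past an adjusted p of 0.05 in the smaller fit, and no member passed with all 6 libraries.

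Of the transcription factors, Tfeb stood lower in the tamoxifen-labelled libraries 2 and 3, while Tfe3, Mitf and Tfec showed no shared direction. Tfeb (chromosome 17, 47737030 to 47792419 of GRCm38 on the plus strand), for which the family is named, was at 7.24, 4.67 and 5.22 FPKM in the tamoxifen-labelled libraries 1, 2 and 3, against 7.88, 7.78 and 6.96 FPKM in oil 1, 2 and 3. Tamoxifen-labelled library 1 lay within the range of oil, and the other libraries of its group lay below it. The log2 fold change was -0.36 (SE 0.14 and adjusted p = 0.186 by limma-trend). Tfeb fell by 0.52 without tamoxifen-labelled library 1 (SE 0.08 and adjusted p = 0.00802 by limma-trend, with 0.00802 to 0.448 over all alternatives).

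Tfe3, the relative on the X chromosome, was the steadiest member of the family, at 14.9, 14.9 and 14.6 FPKM in the tamoxifen-labelled libraries, against 14.2, 14.6 and 14.3 FPKM in oil. The 3 values lay just above the oil range, with a log2 fold change of 0.04 (SE 0.06). Mitf, known for its role in pigment cells, osteoclasts and mast cells, was at 16.0, 12.7 and 14.0 FPKM in the tamoxifen-labelled libraries, against 13.7, 14.2 and 12.8 FPKM in oil. Tfec, whose expression is centred on macrophages, was at 2.61, 4.60 and 3.61 FPKM in the tamoxifen-labelled libraries, against 5.59, 4.43 and 3.56 FPKM in oil. Both genes overlapped between the groups, and the lowest Tfec level and the highest Mitf level were in tamoxifen-labelled library 1. Tfe3 and Mitf together made up most of the family's summed FPKM. The share of Tfeb was 17.8%, 12.7% and 14.0% in the tamoxifen-labelled libraries 1, 2 and 3, and 19.1%, 19.0% and 18.5% in oil. The family's sum of FPKM differed little, at 38.3 ± 2.06 FPKM in the tamoxifen-labelled libraries and 40.0 ± 2.02 FPKM in oil (SD, n = 3 each).

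In the initiation complex, the kinase Ulk2 and the scaffold Atg13 stood apart between the groups in opposite directions. Ulk2 (chromosome 11, 61775649 to 61855073, minus strand), a kinase that shares work with Ulk1, was at 12.5, 7.19 and 8.62 FPKM in the tamoxifen-labelled libraries, against 17.8, 15.03 and 13.6 FPKM in oil. All 3 lay below every oil library, and the log2 fold change was -0.68 (SE 0.19 and adjusted p = 0.152 by limma-trend). It fell by 0.88 without tamoxifen-labelled library 1 (limma-trend adjusted p = 0.00606, with 0.00606 to 0.428 over all alternatives).

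Ulk1, the kinase that mTORC1 restrains when nutrients are plentiful, was at 11.6, 9.36 and 8.91 FPKM in the tamoxifen-labelled libraries, against 10.7, 11.1 and 12.5 FPKM in oil. The groups overlapped through tamoxifen-labelled library 1. Atg13 (chromosome 2, 91674618 to 91710576, minus strand), the regulatory subunit of the complex, was at 18.4, 16.0 and 16.7 FPKM in the tamoxifen-labelled libraries, against 13.4, 14.3 and 14.5 FPKM in oil. Here tamoxifen-labelled library 1 was the farthest from oil, and the log2 fold change was 0.26 (SE 0.08 and adjusted p = 0.154 by limma-trend) and 0.21 without that library. Rb1cc1 (FIP200), the large scaffold of the complex, was at 3.21 ± 0.262 FPKM in the tamoxifen-labelled libraries and 3.17 ± 0.0769 FPKM in oil (SD, n = 3 each).

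**Figure D3:**
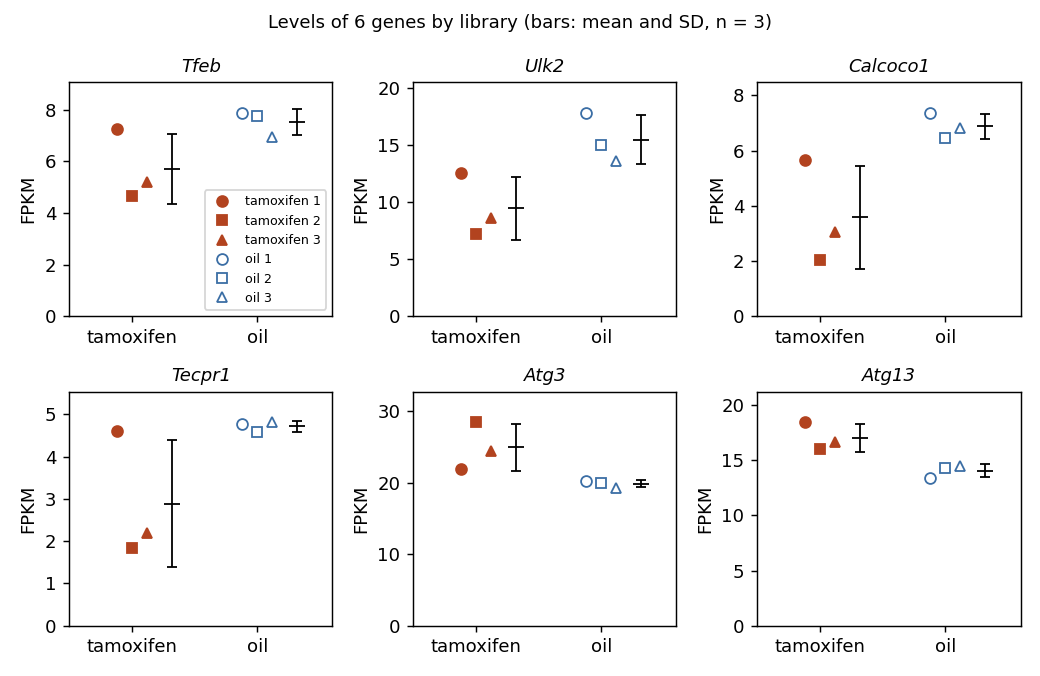
Each panel plots the FPKM of a gene, from 0, in the 3 libraries labelled tamoxifen (filled, left) and the 3 oil libraries (open, right), with the mean and SD beside them. For Tfeb, Calcoco1 and Tecpr1 tamoxifen-labelled library 1 lies close to oil and the other libraries of its group lie lower, while Atg3 and Atg13 lie above oil in all 3.

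In the class III PI3-kinase complex Atg14 and Pik3r4 lay below every oil library, by small steps. None of its 5 members had an unadjusted p under 0.05, as 24.9% of all genes did, which in so few genes says little of the complex. Becn1 (Beclin 1), the subunit around which the complex is built, was at 11.8, 11.3 and 11.4 FPKM in the tamoxifen-labelled libraries, against 11.5, 11.7 and 11.9 FPKM in oil, with a log2 fold change of -0.02 (SE 0.06). The opposite gene Cntd1 covers 43.9% of its exon bases and was at 0.147 FPKM in the tamoxifen-labelled libraries and 0.0936 FPKM in oil on average. Atg14, which directs the complex to autophagy, was at 5.29, 5.17 and 5.09 FPKM in the tamoxifen-labelled libraries, against 6.09, 5.46 and 6.16 FPKM in oil. All 3 lay below oil by a small step, a log2 fold change of -0.16 (SE 0.07 and adjusted p = 0.231 by limma-trend).

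Pik3r4 (VPS15), the regulatory subunit, also lay below oil throughout, at 3.39, 2.70 and 3.24 FPKM in the tamoxifen-labelled libraries, against 3.54, 3.60 and 3.55 FPKM in oil. The catalytic subunit Pik3c3 (VPS34) averaged 6.78 ± 0.381 FPKM in the tamoxifen-labelled libraries and 7.33 ± 0.251 FPKM in oil (SD, n = 3 each). Uvrag, which takes the place of ATG14 in the complex that acts on endosomes, was at 15.5, 19.1 and 13.9 FPKM in the tamoxifen-labelled libraries, against 15.9, 14.8 and 15.8 FPKM in oil. Its value in tamoxifen-labelled library 2 was the highest of the 6, and that in tamoxifen-labelled library 3 the lowest. The exons of Uvrag hold a repeat shared with 85 other annotated genes at 90.1% identity or more, so its level is uncertain.

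The genes that supply lipid and read the phosphoinositide mark overlapped between the groups. Atg9a, the scramblase carried on the vesicles that seed the membrane, was at 4.25, 5.73 and 4.57 FPKM in the tamoxifen-labelled libraries, against 4.54, 4.27 and 4.45 FPKM in oil. Only tamoxifen-labelled library 2 stood out. Of the exon bases of Atg9a, 31.8% are shared with Gm29253 on the same strand, a gene listed at 0 in all 6 libraries. Wipi1 was at 3.96, 2.97 and 3.13 FPKM in the tamoxifen-labelled libraries, against 4.19, 3.996 and 3.64 FPKM in oil. Wipi2, which recruits the ATG16L1 complex, was at 7.51 ± 0.0845 FPKM in the tamoxifen-labelled libraries and 6.98 ± 0.446 FPKM in oil (SD, n = 3 each).

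The conjugation enzymes split, with Atg3 higher and Atg5 lower. Atg3 (chromosome 16, 45158785 to 45188538, plus strand), the E2-like enzyme that joins ATG8 proteins to phosphatidylethanolamine, was at 21.9, 28.4 and 24.4 FPKM in the tamoxifen-labelled libraries, against 20.2, 19.95 and 19.3 FPKM in oil. All 3 lay above oil, and the log2 fold change was 0.31 (SE 0.10 and adjusted p = 0.157 by limma-trend). It rose by 0.39 without tamoxifen-labelled library 1 (limma-trend adjusted p = 0.0153, with 0.0153 to 0.428 over all alternatives).

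Atg5 (chromosome 10, 44268358 to 44364291, plus strand), which is joined to ATG12 to form part of the E3-like complex, was at 17.4, 13.5 and 14.3 FPKM in the tamoxifen-labelled libraries, against 19.5, 18.3 and 16.9 FPKM in oil. Tamoxifen-labelled library 1 overlapped oil, and the log2 fold change was -0.27 (SE 0.11 and adjusted p = 0.192 by limma-trend). Its partner Atg12 was at 27.0, 25.1 and 22.2 FPKM in the tamoxifen-labelled libraries, against 25.2, 26.3 and 27.3 FPKM in oil, so the groups overlapped. Atg7, the E1-like enzyme that serves both conjugation reactions, was nearly level at 9.39 ± 0.242 FPKM in the tamoxifen-labelled libraries and 9.53 ± 0.161 FPKM in oil (SD, n = 3 each). Atg16l1, which places the E3-like complex on the membrane, was at 3.40, 3.05 and 3.22 FPKM in the tamoxifen-labelled libraries, against 3.53, 3.42 and 3.44 FPKM in oil, just outside its range. Atg4b, the protease that trims ATG8 proteins and frees them from lipid, averaged 3.97 ± 0.432 FPKM in the tamoxifen-labelled libraries and 3.70 ± 0.123 FPKM in oil (SD, n = 3 each).

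All 5 ATG8 genes had a log2 fold change below 0, from -0.40 for Map1lc3a to -0.03 for Gabarap, where 5054 of all 10920 genes were below 0. Of the 5, 3 lay below every oil library, as did 13.8% of all genes. Gabarapl2 turned to 0.02 without oil 1, and the other fold changes kept their sign under every alternative run. Gabarap was by far the most abundant, at 261, 243 and 238 FPKM in the tamoxifen-labelled libraries, against 260.4, 245 and 251 FPKM in oil. It held 74.0% ± 0.678 of the family's summed FPKM in the tamoxifen-labelled libraries and 71.1% ± 1.06 in oil (SD, n = 3 each). The order of levels per length in oil was Gabarap, Gabarapl1, Map1lc3b, Gabarapl2 and Map1lc3a, with no overlap between neighbours. The order was the same in each of the tamoxifen-labelled libraries.

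Gabarapl1 (chromosome 6, 129533160 to 129542346, plus strand) was at 36.8, 35.9 and 32.1 FPKM in the tamoxifen-labelled libraries, against 45.7, 42.3 and 40.2 FPKM in oil. The log2 fold change was -0.28 (SE 0.09 and adjusted p = 0.153 by limma-trend). Map1lc3b, the LC3 gene most used as an autophagosome marker, was at 26.1, 26.6 and 23.8 FPKM in the tamoxifen-labelled libraries, against 31.3, 28.0 and 28.7 FPKM in oil, with a log2 fold change of -0.20 (SE 0.08 and adjusted p = 0.189 by limma-trend). Map1lc3a, its close relative, was at 10.3, 8.93 and 7.47 FPKM in the tamoxifen-labelled libraries, against 13.9, 10.7 and 11.7 FPKM in oil, with a log2 fold change of -0.40 (SE 0.14 and adjusted p = 0.160 by limma-trend). For these 3 genes every library labelled tamoxifen, including tamoxifen 1, was below every oil library. Gabarapl2 (GATE-16) overlapped, at 17.4 ± 0.744 FPKM in the tamoxifen-labelled libraries and 18.5 ± 2.21 FPKM in oil (SD, n = 3 each). As the strand setting of the counting is unknown, reads of Gabarapl1 and of the opposite gene 1700101I11Rik, which covers 28.3% of its exon bases, cannot be told apart. That gene was at 0.374 FPKM in the tamoxifen-labelled libraries and 0.420 FPKM in oil on average. Map1lc3b and Gabarapl2 each share stretches of at least 90% identity with 5 other annotated genes, and Rb1cc1 and Atg4b each with 1, so their levels are uncertain where the authors' counting could split reads. Atg14 shares bases with the opposite gene Gm49004, which covers 5.53% of its exon bases at the same place in the genome.

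**Figure D4:**
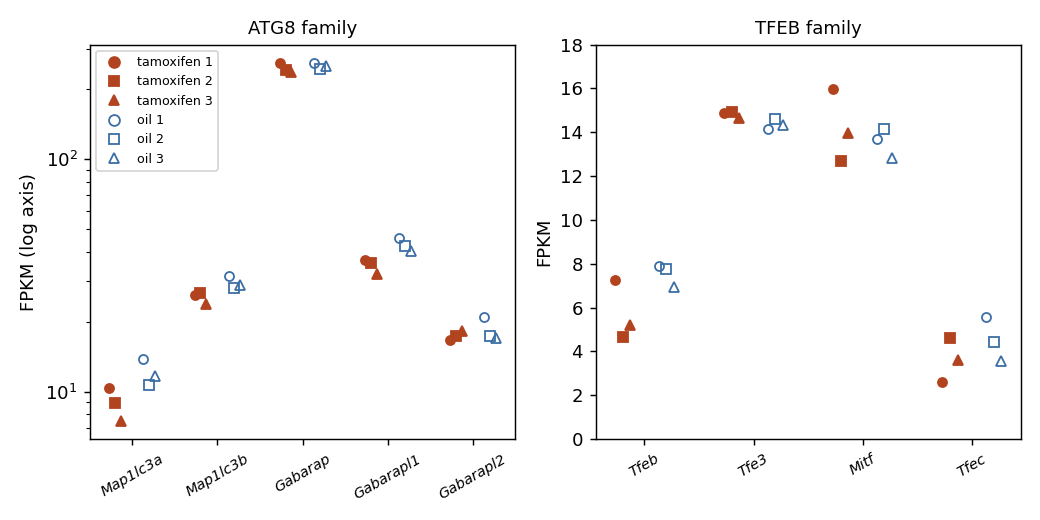
The left panel plots FPKM of the 5 ATG8 genes on a log axis and the right panel FPKM of the 4 TFEB family genes from 0, with libraries labelled tamoxifen filled and to the left of oil. Gabarap lies between 238 and 261 FPKM, Gabarapl1, Map1lc3b and Map1lc3a are lower in all 3 libraries labelled tamoxifen, and Tfeb is lower in tamoxifen 2 and 3.

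The cargo receptors had members on both sides, with Calcoco1 and Nbr1 lower and Tax1bp1 higher in the tamoxifen-labelled libraries. Sqstm1 (p62; chromosome 11, 50199366 to 50210827, minus strand), which gathers ubiquitinated cargo and is itself degraded by autophagy, was the most abundant member, above 99.1% of tested genes in oil. It was at 363, 463 and 394 FPKM in the tamoxifen-labelled libraries, against 377, 365 and 432 FPKM in oil. The opposite gene Mrnip covers 17.3% of the exon bases of Sqstm1 and averaged 2.85 FPKM in the tamoxifen-labelled libraries and 3.21 FPKM in oil. The groups overlapped, and the log2 fold change was 0.05 (SE 0.12 and adjusted p = 0.805 by limma-trend), turning to -0.02 with quantile normalization and to -0.05 without tamoxifen-labelled library 2.

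Calcoco1 (chromosome 15, 102706777 to 102722178, minus strand), a receptor for autophagy of the endoplasmic reticulum, had the lowest fold change of all members. It was at 5.66, 2.04 and 3.05 FPKM in the tamoxifen-labelled libraries, against 7.36, 6.44 and 6.82 FPKM in oil. Every library labelled tamoxifen lay below oil, tamoxifen 1 by the least, and the log2 fold change was -0.86 (SE 0.26 and adjusted p = 0.155 by limma-trend). Without tamoxifen-labelled library 1 it fell by 1.16 (SE 0.13 and adjusted p = 0.00342 by limma-trend, with 0.00342 to 0.428 over all alternatives).

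Nbr1, a receptor built much like p62, was at 17.2, 16.9 and 15.03 FPKM in the tamoxifen-labelled libraries, against 20.45, 19.2 and 18.8 FPKM in oil. All 3 lay below oil, with a log2 fold change of -0.24 (SE 0.08 and adjusted p = 0.157 by limma-trend). Optn (optineurin), used in the removal of bacteria and mitochondria, was the least abundant tested member, with 78 to 194 reads per library and 1.28 ± 0.278 FPKM in the tamoxifen-labelled libraries and 1.78 ± 0.324 FPKM in oil (SD, n = 3 each). Tax1bp1, which clears protein aggregates and dampens inflammatory signalling, lay the other way. It was at 21.6, 27.0 and 23.6 FPKM in the tamoxifen-labelled libraries, against 20.8, 21.0 and 21.5 FPKM in oil, and its log2 fold change was 0.18 (SE 0.09 and adjusted p = 0.267 by limma-trend).

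Of the tethers, Tecpr1 (chromosome 5, 144194442 to 144223615, minus strand), which binds the ATG12 and ATG5 conjugate and links autophagosomes with lysosomes, was split within the tamoxifen-labelled group. It was at 4.60, 1.84 and 2.20 FPKM in the tamoxifen-labelled libraries 1, 2 and 3, against 4.78, 4.57 and 4.82 FPKM in oil. Tamoxifen-labelled library 1 lay inside the narrow oil range and the others far below it. The log2 fold change was -0.63 (SE 0.24 and adjusted p = 0.181 by limma-trend). Without tamoxifen-labelled library 1 it fell by 0.93 (SE 0.09 and adjusted p = 0.00265 by limma-trend, with 0.00265 to 0.434 over all alternatives). Its coefficient of variation was 52.2% in the tamoxifen-labelled libraries and 2.77% in oil. Epg5, the other tether, is listed at 0 throughout, as are Atg2a and Nrbf2, which other cells use widely, so no level can be given for them.

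Other autophagy genes, 20 of 23 of which reached 1 FPKM, had 3 higher and 6 lower genes at an unadjusted p under 0.05 (45%, against 24.9% of all genes) and a median log2 fold change of -0.09. None of them passed after limma-trend adjustment over all genes, and without tamoxifen-labelled library 1 there were 3 called higher and 7 lower, where 17.4% of all genes were called higher and 14.5% lower. Rubcn (Rubicon), an inhibitor of autophagosome maturation that also serves LC3-associated phagocytosis, was at 5.58, 4.37 and 4.73 FPKM in the tamoxifen-labelled libraries, against 6.96, 6.57 and 6.06 FPKM in oil. Wdr45, a relative of the WIPI proteins, was at 1.64 ± 0.450 FPKM in the tamoxifen-labelled libraries and 2.68 ± 0.461 FPKM in oil. Atg16l2, a relative of Atg16l1, was at 1.18 ± 0.0354 FPKM in the tamoxifen-labelled libraries and 1.78 ± 0.160 FPKM in oil (SD, n = 3 each). All 3 genes lay below oil in every library labelled tamoxifen.

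Receptors for autophagy of mitochondria and of the endoplasmic reticulum, 11 of 14 of which reached 1 FPKM, had 1 higher and 4 lower genes at an unadjusted p under 0.05 (45.5%, against 24.9% of all genes) and a median log2 fold change of -0.08. Fundc1, a receptor on the outer mitochondrial membrane, was at 16.8, 13.6 and 14.6 FPKM in the tamoxifen-labelled libraries, against 21.3, 18.2 and 18.6 FPKM in oil. Tex264, a receptor on the endoplasmic reticulum, was at 18.3 ± 1.89 FPKM in the tamoxifen-labelled libraries and 21.8 ± 0.715 FPKM in oil (SD, n = 3 each). Phb2, of the inner mitochondrial membrane, was higher, at 25.0, 32.7 and 32.97 FPKM in the tamoxifen-labelled libraries, against 22.1, 25.5 and 23.1 FPKM in oil, with overlap through tamoxifen 1.

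Regulators of TFEB, namely mTORC1, the Rag GTPases with their partners and calcineurin, had a median slightly above 0. Of 26 tested genes of 28, 16 had a fold change above 0 and 10 below, where 5866 of all 10920 genes were above and 5054 below. At an unadjusted p under 0.05 there were 4 higher and 2 lower (23.1%, close to the 24.9% of all genes). The median log2 fold change was 0.07. Deptor, an inhibitor of mTOR, was at 3.36, 2.24 and 2.42 FPKM in the tamoxifen-labelled libraries, against 4.84, 3.92 and 4.36 FPKM in oil, a log2 fold change of -0.56 (SE 0.13 and adjusted p = 0.147 by limma-trend). Sesn2, a leucine sensor that restrains mTORC1, was at 13.4, 15.02 and 12.4 FPKM in the tamoxifen-labelled libraries, against 10.8, 11.3 and 10.5 FPKM in oil. Ppp3r1, the regulatory subunit of the phosphatase that activates TFEB, was at 45.7 ± 3.95 FPKM in the tamoxifen-labelled libraries and 37.3 ± 0.550 FPKM in oil (SD, n = 3 each). Both lay above oil in every library labelled tamoxifen.

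Lysosomal genes known as TFEB targets were mostly lower. Their list also holds Ppargc1a, not itself a lysosomal gene, which fell below the 1 FPKM needed for the test. Mcoln1 is counted both in this list and among the regulators of TFEB. Of 26 tested genes of 27, 23 had a fold change below 0, where 5054 of all 10920 genes did. At an unadjusted p under 0.05 there were 1 higher and 9 lower (38.5%, against 24.9% of all genes). The median log2 fold change was -0.35. The median gene lay 0.01, -0.55 and -0.49 from the mean of oil, in log2 units, in the tamoxifen-labelled libraries 1, 2 and 3. For the 33 autophagy members these medians were -0.05, -0.08 and -0.14, and over all genes 0.00, 0.02 and 0.04. Without tamoxifen-labelled library 1, 1 of the lysosomal genes was called higher and 17 lower, where 17.4% of all genes were called higher and 14.5% lower. Hexa, a subunit of the hexosaminidase that degrades gangliosides, was at 515, 274 and 315 FPKM in the tamoxifen-labelled libraries, against 654, 547 and 544 FPKM in oil. Sgsh, which removes sulfate from heparan sulfate, was at 6.84 ± 3.09 FPKM in the tamoxifen-labelled libraries and 11.7 ± 0.942 FPKM in oil (SD, n = 3 each). Ctsf (cathepsin F) was at 1.36, 0.727 and 0.669 FPKM in the tamoxifen-labelled libraries, against 4.72, 2.39 and 3.94 FPKM in oil, and lay below oil also in tamoxifen 1. The counts at an unadjusted p under 0.05 moved with single libraries. They ran from 2 to 12 for other autophagy genes, from 1 to 6 for the receptors of mitochondria and endoplasmic reticulum, from 3 to 12 for TFEB regulators and from 1 to 20 for lysosomal genes, the highest each time without tamoxifen-labelled library 1. Over all genes the share at that p ran from 11.4% without oil 1 to 44.8% without tamoxifen-labelled library 1. The lowest counts came without oil 1 in all 4 lists, also without tamoxifen-labelled library 2 for all but other autophagy genes, and without tamoxifen-labelled library 3 for the receptors and regulators.

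**Figure D5:**
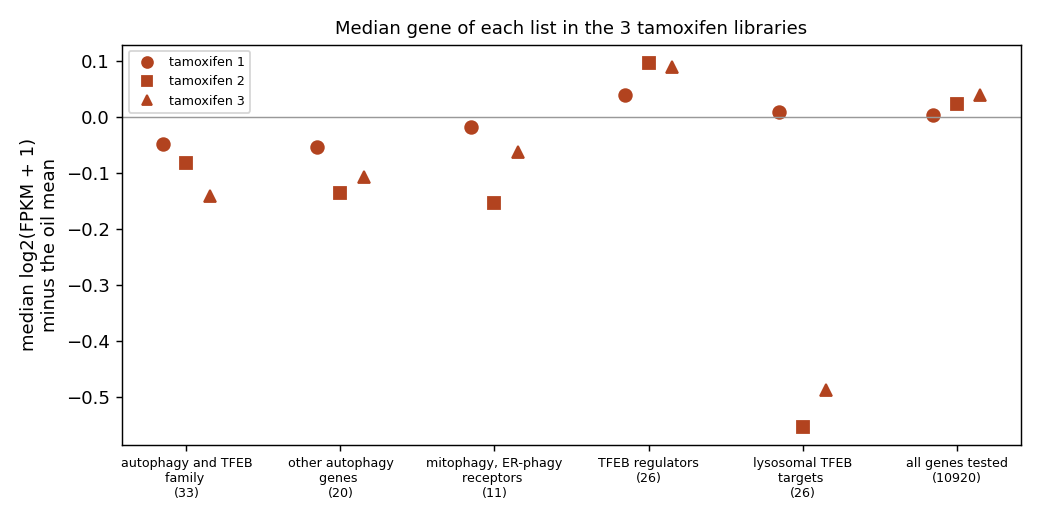
Points give the median over the genes of each list of log2(FPKM + 1) minus the oil mean, for the tamoxifen-labelled libraries 1, 2 and 3, with the number of tested genes in brackets. The lysosomal TFEB targets reach -0.55 and -0.49 in tamoxifen 2 and 3 and 0.01 in tamoxifen 1, while the autophagy and TFEB family members lie between -0.14 and -0.05.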

How the data were processed

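RNA of sorted macrophages was measured in 3 libraries labelled tamoxifen and 3 labelled oil. The authors deposited FPKM values per gene and library in 1 table, per the name of that table and its values. Per the submitters' processing notes, reads were placed on GRCm38.p6. The aligner, counting program and strand setting were not given in the sources used here. Of 54183 lines, 382 had no gene name and 27 a date, together 0.253% to 0.289% of a library's summed FPKM, and these were left out. All sample columns were used.

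FPKM times the exon length of GENCODE M21 gave whole multiples of 1 step, within 0.02 reads, for 95.0% to 95.3% of values up to 1000 reads, and the step gives the depth. FPKM was therefore divided by all annotated exons of a gene, which lowers genes with long rare exons. The lowest chi-square per degree of freedom between libraries was 7.20, so no library was a copy of another.

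Limma-trend (limma 3.58.1, R 4.3.3) was fitted on log2(FPKM + 1) across 10920 genes whose mean reached 1 FPKM. Fold changes on that scale understate those of low genes. Two-sided p-values were adjusted after Benjamini and Hochberg over all genes, with a threshold of 0.05. Values are FPKM, so the fit is not a count test, and limma-voom on 9921 genes with whole recovered reads was an alternative. Named are all members, Manf, the sort and Cre driver genes, and from each other list the 3 genes with the smallest p. Atg2a and Nrbf2 were added for their values of 0. Members and lists were chosen with earlier results of these data known.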

Additional observations from a re-analysis of the deposited data

How the results depend on the processing

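Alternatives were a pseudocount of 0.1, no filter, a filter at 5 FPKM, 3 other scalings, limma with no trend or a robust prior, limma-voom, a replicate block, and leaving out single libraries. Over single libraries left out, called members ran from 0 to 12 (higher 0 to 2, lower 0 to 10), members at an unadjusted p under 0.05 from 3 to 15 (higher 1 to 3, lower 2 to 12), and members without overlap from 13 to 25 (lower 9 to 19). For other lists at an unadjusted p under 0.05 the ranges were 2 to 12 (other autophagy genes), 1 to 6 (mitophagy and ER-phagy receptors), 3 to 12 (TFEB regulators) and 1 to 20 (lysosomal targets). With equal sums of FPKM 2 members lay wholly above oil, against 4 as reported. Other autophagy genes at an unadjusted p under 0.05 numbered 3 with the filter at 5 FPKM, against 9, where 28.9% of all genes had that p. That filter takes genes with lower means, such as Atg16l2, Wdr45 and Stx17, out of the test. Mitophagy and ER-phagy receptors numbered 3 without a filter, against 5, where 14% of all genes had that p.

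Of 518 refits of single members 497 kept direction and side of the threshold, 12 passed it, each without tamoxifen 1, and 9 turned sign, in 6 members. Rb1cc1 turned to -0.0056 with median-of-ratios scaling, Uvrag to -0.0003 and Sqstm1 to -0.0199 with quantile normalization. Over single libraries left out the log2 fold change ran from -0.0239 to 0.13 for Mitf, -0.0385 to 0.0428 for Rb1cc1, -0.0705 to 0.14 for Uvrag, -0.0035 to 0.18 for Atg9a, -0.13 to 0.017 for Gabarapl2, -0.0467 to 0.13 for Sqstm1, and from -0.24 to 0.35 for Manf. The cause was not tested.

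The replicate block left 0 called members, with 33 of all genes called, and 10 at an unadjusted p under 0.05, against 11. Same-numbered libraries correlated at 0.261, 0.088 and 0.004 in their deviations, and only number 1 matched its own number best. With 3 libraries in each group these correlations cannot decide whether same-numbered libraries were paired. Depth limits Optn most, at 78 to 194 reads.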
